A study of Mus musculus with 16 samples.

Results

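The secreted Wnt antagonists examined here were the secreted Frizzled-related genes *Sfrp1*, *Sfrp2*, *Frzb* (also known as *Sfrp3*), *Sfrp4* and *Sfrp5*, the Wnt inhibitory factor gene *Wif1* and the Dickkopf genes *Dkk1*, *Dkk2*, *Dkk3* and *Dkk4*. These 10 genes were taken by symbol from 19938 genes that had a probe set of a single symbol, and each of them had exactly 1 such probe set. The samples were first molars and lower incisors microdissected from C57Bl6 mouse embryos at embryonic day 14.5, when the tooth germ is at the cap stage, with no treatment or mutation in any group. There were 8 mandibular molar, 4 maxillary molar and 4 lower incisor samples, each the RNA of 4 pooled germs on 1 Affymetrix Mouse Gene 1.0 ST array. The sources do not say which germs came from which embryo, so p-values measure the spread between pools. One incisor sample was set aside in the study for its quality, but which of them is not given in the sources used here, and all 4 were kept. Values are RMA log2 signals, on which a step of 1 is a doubling. They can be compared between samples for 1 gene, but not between genes.

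Wnt proteins act through Frizzled receptors with the co-receptors Lrp5 and Lrp6, and the tooth germ depends on them from its initiation through the formation of the enamel knot, the signalling centre that shapes the crown. The Sfrp proteins carry a cysteine-rich domain like that of the Frizzled receptors and can bind Wnts outside the cell. Wif1 also binds Wnts, through a domain of its own. Dkk1, Dkk2 and Dkk4 bind Lrp5 and Lrp6 instead, together with the Kremen proteins, whereas Dkk3 is a divergent family member that is not known to act on these co-receptors in the same way.

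Promoter sequences were available from RefSeq (GRCm38.p6) for 6 of the 10 genes, *Sfrp2*, *Frzb*, *Sfrp5*, *Wif1*, *Dkk1* and *Dkk2*. They were searched on both strands, over 250 bases before the start, for 3 motifs. The TCF/LEF core was CTTTGA, whose match on the opposite strand is written TCAAAG along the gene, and 13.8% of 32851 promoters held it. The homeodomain core was TAATTA, which reads the same on both strands and was held by 4.84%. The TATA box was TATAAA, whose match on the opposite strand is written TTTATA along the gene, and 12.4% held it. The TCF/LEF core, the sequence that the nuclear partners of β-catenin recognise, was present in 2 of the 6, *Frzb* and *Dkk1*, the TATA box in 3 of the 6, *Wif1*, *Dkk1* and *Dkk2*, and TAATTA in 0 of the 6. The promoters of *Frzb*, *Wif1*, *Dkk1* and *Dkk2* are given 5′ to 3′, from the strand of the gene, because these are the 4 that held a match. Capitals mark the matches. The run of *Dkk2* has 224 bases, since the annotated gene begins within its window. The annotated *Sfrp2* gene also begins within its own window. Positions are counted from the start given by the promoter record, which for *Sfrp2* and *Dkk2* lies inside the annotated gene. The sequences lie at chr2:80447397-80447646 (minus strand) for *Frzb*, chr10:121033754-121034003 (plus strand) for *Wif1*, chr19:30549497-30549746 (minus strand) for *Dkk1* and chr3:132085042-132085265 (plus strand) for *Dkk2*.
Frzb: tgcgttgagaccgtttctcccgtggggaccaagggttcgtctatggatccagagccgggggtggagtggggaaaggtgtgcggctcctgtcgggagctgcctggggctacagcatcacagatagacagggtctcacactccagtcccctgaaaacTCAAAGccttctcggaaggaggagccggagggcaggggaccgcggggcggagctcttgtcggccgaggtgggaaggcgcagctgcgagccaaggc
Wif1: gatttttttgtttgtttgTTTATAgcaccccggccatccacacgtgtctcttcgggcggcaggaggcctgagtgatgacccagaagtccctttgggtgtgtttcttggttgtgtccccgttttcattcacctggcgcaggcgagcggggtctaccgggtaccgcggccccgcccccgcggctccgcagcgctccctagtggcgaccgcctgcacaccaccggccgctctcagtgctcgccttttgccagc
Dkk1: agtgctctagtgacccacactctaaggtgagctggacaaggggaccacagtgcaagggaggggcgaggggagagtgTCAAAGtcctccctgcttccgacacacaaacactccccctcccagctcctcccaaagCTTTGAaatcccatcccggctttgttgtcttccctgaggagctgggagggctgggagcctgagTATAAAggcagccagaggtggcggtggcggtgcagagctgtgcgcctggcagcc
Dkk2: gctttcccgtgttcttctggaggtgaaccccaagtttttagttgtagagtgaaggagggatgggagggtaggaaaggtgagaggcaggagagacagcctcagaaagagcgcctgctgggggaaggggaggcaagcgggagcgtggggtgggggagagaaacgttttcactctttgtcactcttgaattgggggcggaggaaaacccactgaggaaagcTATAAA
In the *Dkk1* promoter the matches to the TCF/LEF core began 174 and 117 bases before the start, and the TATA box began 54 bases before it. The TCF/LEF core of *Frzb* began 95 bases before the start, the TATA box of *Dkk2* 32 bases before it and that of *Wif1*, on the opposite strand, 232 bases before it. No matches overlapped. The promoters of *Sfrp2* and *Sfrp5* held none of the motifs in this window. These are matches of letters, and binding was not measured.

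Molar and incisor germs differed in the signal levels of several antagonists. Molars had more *Sfrp1* and *Sfrp2*, and incisors had much more *Sfrp4* and more *Wif1*. *Frzb* and *Sfrp5* were also higher in molars over all samples, but neither passed between mandibular molars 1 to 4 and the incisors. The means stood in the order maxillary molar, mandibular molar, lower incisor for 6 of the 10 genes (*Sfrp1*, *Sfrp2*, *Frzb*, *Sfrp5*, *Dkk1* and *Dkk3*). How often all probe sets take this order was not counted. Mandibular molars fall in both of the sample sets described below, and the other tooth types in 1 each. For *Dkk1* the mean of mandibular molars 1 to 4 was 9.27, below the 9.53 of the incisors. Between the mandibular and maxillary molars *Dkk2* alone passed over all samples, a call that was lost within the second of the sample sets described next.

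**Figure D1:**
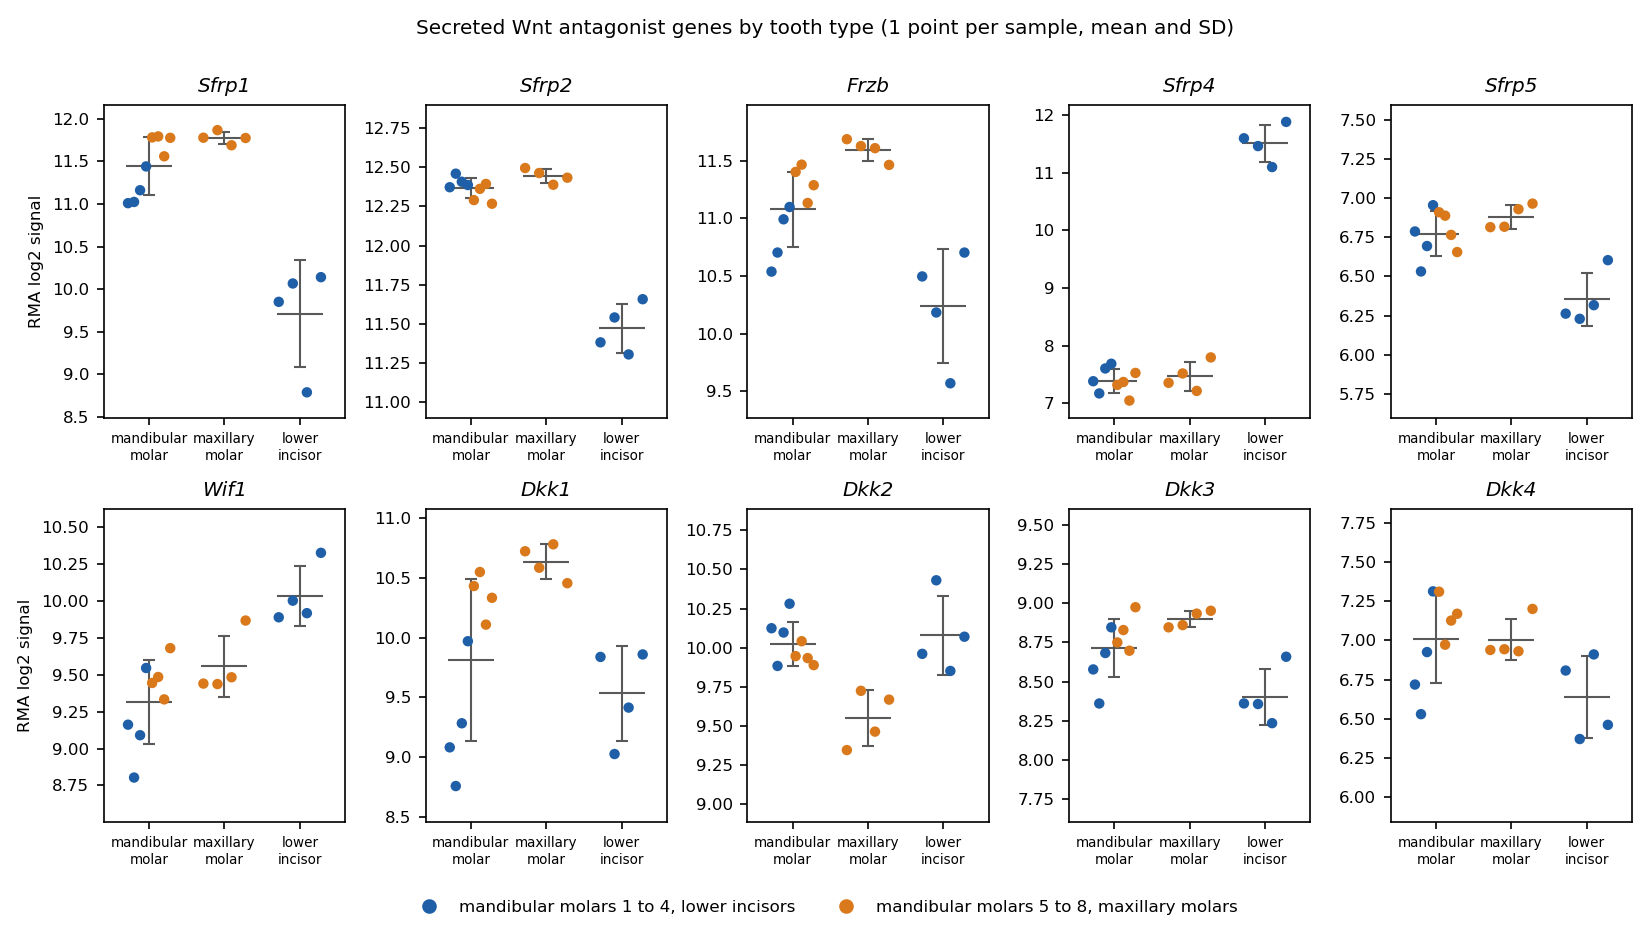
RMA log2 signal (y axis) of each gene in mandibular molar, maxillary molar and lower incisor samples (x axis). Each point is 1 sample, coloured by sample set as in the key, with the mean and SD of the tooth type; the axes of the genes start at different levels. *Sfrp4* lies between 7.05 and 7.80 in all molars and between 11.10 and 11.88 in the incisors, and *Dkk1* in mandibular molars runs over almost the whole range of the gene.

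The 8 mandibular molar samples were not alike. Mandibular molars 5 to 8 resembled the maxillary molars (mean r = 0.992 over 29356 probe sets) more than they resembled mandibular molars 1 to 4 (mean r = 0.983), which in turn lay as near to the lower incisors (mean r = 0.983). The signals of mandibular molars 1 to 4 did not overlap those of 5 to 8 for 19.4% of these probe sets. The labels name no batch. Mandibular molars 1 to 4 with the incisors, and mandibular molars 5 to 8 with the maxillary molars, are called the first and second sample set here, and values within a set are given beside those of all samples. Maxillary molars and lower incisors lie in different sets, so that their tooth type and their set cannot be told apart except through the mandibular molars. Of the genes examined here, 3 did not overlap between mandibular molars 1 to 4 and 5 to 8, *Sfrp1* (difference of -0.57), *Frzb* (-0.49) and *Dkk1* (-1.08). The comparisons share samples, so they are not independent of each other.

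Between mandibular molars and lower incisors, 6 of the 10 genes passed the test (limma, Benjamini-Hochberg adjusted p under 0.1 over all probe sets kept, fold change above 1.2). In mandibular molars 4 were higher, against 2.75% of all 29258 probe sets, and 2 were lower, against 2.18%. The signals of the groups did not overlap for 4 genes, against 3.69% of probe sets. The median difference of the 10 genes was 0.34, beside -0.02 for all probe sets.

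*Sfrp4* (probe set 10403834) showed the largest difference of the 10 genes. In mandibular molars its log2 signal had a lowest value of 7.05, a median of 7.38 and a highest value of 7.69. It was 7.36, 7.52, 7.22 and 7.80 in maxillary molars and 11.60, 11.46, 11.10 and 11.88 in lower incisors. Every incisor sample thus lay more than 3 log2 units above every molar sample, and the molars of the jaws overlapped. The gene was 17.4-fold lower in mandibular molars than in incisors (log2 difference -4.12, standard error 0.14, adjusted p = 5.13e-09). Mandibular molars 1 to 4 alone, from the set of the incisors, gave -4.05 (adjusted p = 2.59e-05). In maxillary molars it was 16.4-fold lower than in incisors (-4.04, adjusted p = 8.85e-06). Between mandibular and maxillary molars the difference was -0.08 with a 95% interval of -0.36 to 0.20. Where a bulk signal differs in this way, fewer cells that express the gene and less RNA per cell cannot be told apart.

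*Sfrp1* (probe set 10570957) and *Sfrp2* (probe set 10492798), which encode closely related Wnt-binding proteins, went the other way. The signal of *Sfrp1* in mandibular molars was 11.01 at its lowest, 11.50 at the median and 11.79 at its highest. It was 11.78, 11.87, 11.69 and 11.78 in maxillary molars and 9.85, 10.07, 8.79 and 10.14 in lower incisors, where sample 3 was the lowest. Molars and incisors did not overlap. The difference was 1.73 (standard error 0.25, adjusted p = 0.00145) for mandibular molars, 1.45 (adjusted p = 0.0533) for mandibular molars 1 to 4, and 2.07 (adjusted p = 0.00143) for maxillary molars. Without lower incisor 3 the mandibular difference was 1.42. *Sfrp2* was the steadiest of the genes among mandibular molars, with a lowest signal of 12.27, a median of 12.38 and a highest of 12.46. It had 12.50, 12.46, 12.39 and 12.43 in maxillary molars, against 11.38, 11.54, 11.31 and 11.66 in lower incisors, again without overlap between molars and incisors. Its difference was 0.90 in mandibular molars (standard error 0.07, adjusted p = 7.98e-06) and 0.93 in mandibular molars 1 to 4 (adjusted p = 0.00168), and maxillary molars stood 0.97 above incisors (adjusted p = 0.000224). With the sample set as a block, the maxillary differences were 1.498 for *Sfrp1* and 1.05 for *Sfrp2*, and both passed.

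*Frzb* (probe set 10484307), whose product was first isolated from bovine cartilage, was less even. Mandibular molars had a lowest signal of 10.54, a median of 11.11 and a highest of 11.46. Maxillary molars had 11.69, 11.63, 11.61 and 11.46, and lower incisors 10.49, 10.18, 9.57 and 10.70. The incisors overlapped the lower mandibular molars and lay below all maxillary molars. *Frzb* was higher in mandibular molars by 0.84 (standard error 0.21, adjusted p = 0.0518), but the call was lost without lower incisor 2 (0.82, adjusted p = 0.136), without lower incisor 3 (0.62, adjusted p = 0.171) and within the first sample set (0.59, adjusted p = 0.5). It was also lost with the methods' t-test (adjusted p = 0.103) and with the sample set as a block (adjusted p = 0.139). The maxillary difference from incisors was 1.36 (adjusted p = 0.00347), and 0.87 (adjusted p = 0.148) with the sample set as a block.

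*Sfrp5* (probe set 10467744) gave a smaller difference in the same direction. Its signal in mandibular molars had a lowest value of 6.53, a median of 6.78 and a highest value of 6.95. It was 6.81, 6.82, 6.93 and 6.96 in maxillary molars and 6.26, 6.23, 6.32 and 6.60 in lower incisors. Only lower incisor 4 reached into the range of the mandibular molars, above the lowest of them. The gene was higher in mandibular molars by 0.42 (standard error 0.09, adjusted p = 0.024) and in maxillary molars by 0.53 (adjusted p = 0.00499). Mandibular molars 1 to 4 alone differed from the incisors by 0.39, which did not pass (adjusted p = 0.252). With the sample set as a block in a fit of all 16 samples, the mandibular difference was also 0.39 and passed (adjusted p = 0.0435). The maxillary difference in that fit was 0.47 and did not pass (adjusted p = 0.124).

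*Wif1* (probe set 10366653), the other gene with a Wnt-binding product, was lower in molars. In mandibular molars its lowest signal was 8.80, the median 9.39 and the highest 9.68. It had 9.44, 9.44, 9.48 and 9.87 in maxillary molars and 9.89, 10.002, 9.92 and 10.33 in lower incisors. The lowest incisor was above every molar sample, by 0.02 in the case of maxillary molar 4. The difference was -0.72 in mandibular molars (standard error 0.15, adjusted p = 0.0181), -0.88 against the incisors of its own set (adjusted p = 0.0411), and -0.48 in maxillary molars (adjusted p = 0.0271). Within the first sample set *Sfrp1* and *Sfrp2* were thus higher with limma, against 0.948% of all probe sets, and *Sfrp4* and *Wif1* lower, against 0.832%. The methods' t-test called 2 of the 10 genes within that set, beside 278 of 29100 probe sets.

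**Figure D2:**
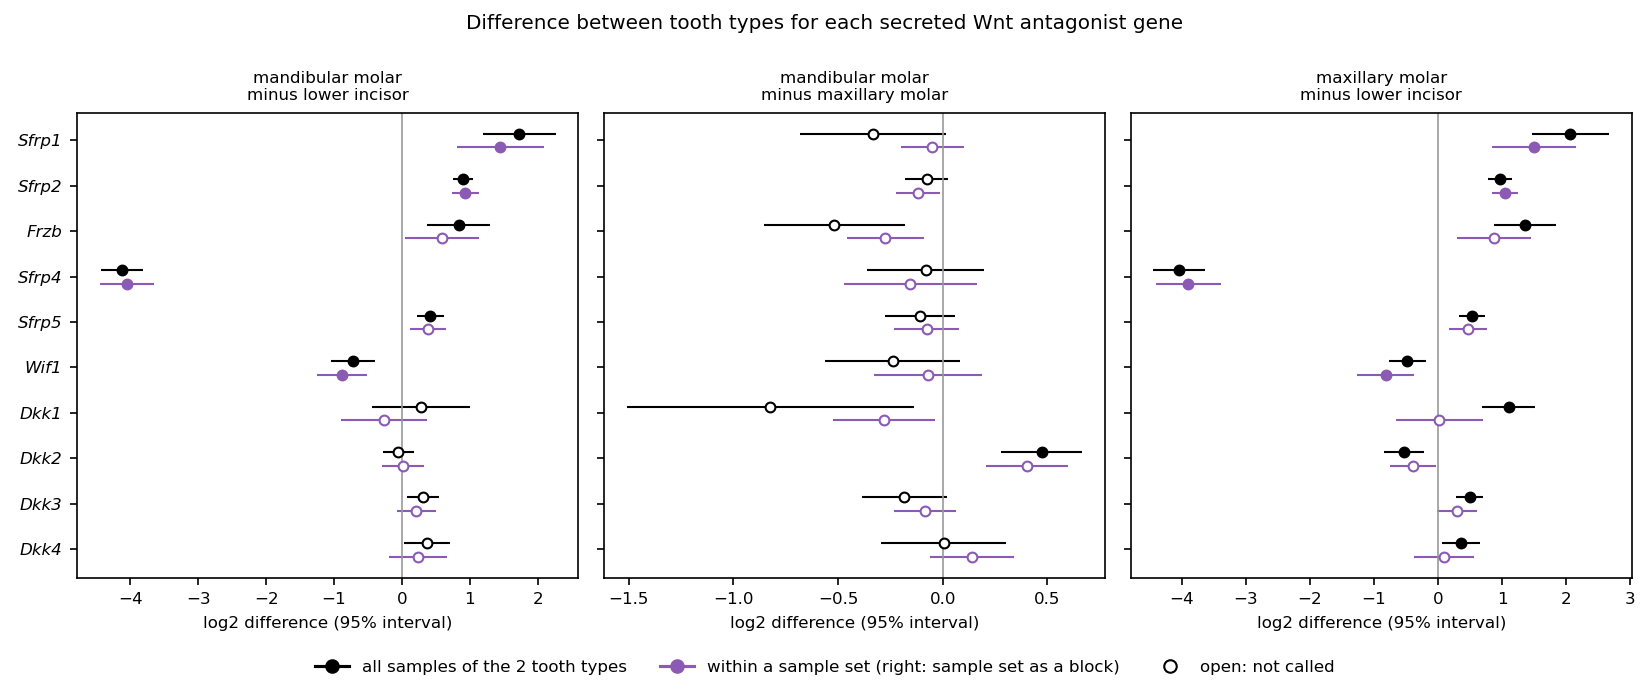
Log2 difference between tooth types (x axis, first-named minus second-named) with its 95% interval for each gene (y axis). Black points use all samples of the 2 tooth types, purple points a single sample set or, at the right, the sample set as a block; filled points passed the test. *Sfrp1*, *Sfrp2*, *Sfrp4* and *Wif1* are filled in both colours at the left and at the right, whereas *Dkk1* lies at 1.104 with all samples and at 0.02 with the block at the right.

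The Dickkopf genes did not pass between all mandibular molars and lower incisors. *Dkk1* (probe set 10467006) had a lowest signal of 8.76, a median of 10.04 and a highest of 10.55 in mandibular molars, a spread that followed the sample sets. Mandibular molars 1 to 4 had 9.08, 8.76, 9.28 and 9.97, and 5 to 8 had 10.43, 10.55, 10.11 and 10.33. Maxillary molars had 10.72, 10.59, 10.78 and 10.46, and lower incisors 9.84, 9.02, 9.41 and 9.86. Incisors therefore overlapped mandibular molars 1 to 4 and lay below mandibular molars 5 to 8. The mandibular difference from incisors was 0.28 (95% interval -0.45 to 1.01, adjusted p = 0.664), and -0.26 (adjusted p = 0.905) within the first sample set. With mandibular molars 5 to 8 alone, which the sample set separates from the incisors, it was 0.82 (adjusted p = 0.0205). In that comparison 7 of the 10 genes were higher, against 11.9% of all probe sets, and 2 were lower, against 8.88%.

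For *Dkk2* (probe set 10496125) the mandibular molars and incisors were close, with a difference of -0.05 and a 95% interval of -0.28 to 0.17. *Dkk3* (probe set 10567010) had a difference of 0.31 (interval 0.08 to 0.55, adjusted p = 0.151). It passed without lower incisor 4 (0.40, adjusted p = 0.0672) and without mandibular molar 2 (0.36, adjusted p = 0.0429), and with mandibular molars 5 to 8 alone it had 0.41 (adjusted p = 0.0271). *Dkk4* (probe set 10570850), a gene known from ectodermal placodes and the enamel knot, had 0.37 (interval 0.04 to 0.71, adjusted p = 0.228) and passed without mandibular molar 2 (0.44, adjusted p = 0.0862) and with mandibular molars 5 to 8 alone (0.51, adjusted p = 0.0317).

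Between mandibular and maxillary molars, *Dkk2* was the single gene of the 10 that passed, in the higher direction, against 1.01% of 29068 probe sets that were higher and 1.18% that were lower. Its groups were also the single ones without overlap, against 4.1% of probe sets. The signal of *Dkk2* in mandibular molars had a lowest value of 9.88, a median of 9.99 and a highest value of 10.28. In maxillary molars it was 9.35, 9.73, 9.46 and 9.67, below all mandibular samples. Lower incisors, at 9.96, 10.43, 9.85 and 10.07, lay with the mandibular molars. The difference between the molars was 0.47 (standard error 0.09, adjusted p = 0.0219), a 1.39-fold higher signal in mandibular molars. Within the second sample set it was 0.40, still without overlap, but at an adjusted p of 0.1 it did not pass, and with the sample set as a block the adjusted p was 0.22.

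The other 9 genes did not pass between the molars, and the median difference of the 10 was -0.15, beside 0.02 for all probe sets. *Dkk1* had -0.82 (95% interval -1.51 to -0.14, adjusted p = 0.237) and *Frzb* -0.52 (interval -0.86 to -0.18, adjusted p = 0.142). Both values depended on the sample set. Against the maxillary molars, mandibular molars 1 to 4 alone gave -1.37 for *Dkk1* and -0.76 for *Frzb*, and mandibular molars 5 to 8 alone gave -0.28 and -0.27. *Frzb* passed without mandibular molar 6 (-0.57, adjusted p = 0.0963). Within the second sample set 0 of the 10 genes passed with limma, where 0.54% of all probe sets were higher and 0.743% lower. There 4 genes had an unadjusted p under 0.05, beside 3684 of 28686 probe sets. The methods' t-test called 0 of the 10, beside 112 of 28686 probe sets. *Sfrp1*, *Sfrp2*, *Sfrp5*, *Wif1* and *Dkk3* had differences of -0.33, -0.08, -0.11, -0.24 and -0.18 over all samples, and *Dkk4* had 0.00 with an interval of -0.29 to 0.30.

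Between maxillary molars and lower incisors all 10 genes passed, but so did a large part of the array. In maxillary molars 7 genes were higher, against 14.4% of 29075 probe sets, and 3 were lower, against 13.4%. Signals of the groups were apart for each of the 10 genes, against 32.3% of probe sets. The median difference of the 10 genes was 0.51, beside -0.04 for all probe sets. Besides the Sfrp genes and *Wif1*, *Dkk1* was higher by 1.104 (adjusted p = 0.00416), *Dkk3* by 0.50 (adjusted p = 0.00653) and *Dkk4* by 0.37 (adjusted p = 0.0653), and *Dkk2* was lower (-0.53, adjusted p = 0.023). *Dkk3* had 8.85, 8.86, 8.93 and 8.95 in maxillary molars, against 8.36, 8.36, 8.23 and 8.66 in lower incisors. *Dkk4* had 6.94, 6.94, 6.93 and 7.20, against 6.81, 6.37, 6.91 and 6.46. The *Dkk4* groups were separated by 0.02, and the call was lost without any 1 of lower incisors 2 and 4 or maxillary molars 1, 2 and 4, with differences of 0.28 to 0.39 and adjusted p of 0.106 to 0.149.

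With the sample set as a block in a fit of all 16 samples, 4 of the 10 genes passed between maxillary molars and incisors. *Sfrp1* and *Sfrp2* were higher, against 1.55% of probe sets, and *Sfrp4* (-3.89) and *Wif1* (-0.81, adjusted p = 0.0606) were lower, against 1.51%. In that fit *Dkk1* had 0.02 (95% interval -0.66 to 0.70), *Dkk2* -0.38 (-0.74 to -0.02), *Dkk3* 0.30 (-0.01 to 0.61), *Dkk4* 0.09 (-0.37 to 0.56) and *Sfrp5* 0.47 (0.17 to 0.76).

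Markers of the tissues that a dissected germ can hold moved with the tooth types. The mean signal of 9 dental mesenchyme markers was 9.36 to 9.76 in mandibular molars 1 to 4 and 9.70 to 9.90 in mandibular molars 5 to 8. It was 9.86 to 9.98 in maxillary molars and 8.79 to 9.13 in lower incisors, an order shared by the means of *Sfrp1*, *Frzb*, *Sfrp5* and *Dkk3*. Of these markers 4 of 9 were higher in mandibular molars than in incisors. The list as drawn up held *Barx1*, *Lhx6* and *Lhx8*, which a table of the study gives as enriched in molars over incisors. The mean of the list therefore does not measure the amount of mesenchyme alone. The mean of 7 dental epithelium markers was 10 to 10.86 in mandibular molars, 10.41 to 10.78 in maxillary molars and 9.99 to 10.29 in lower incisors. The germs held both tissues by these markers. For 7 enamel knot markers the mean was 7.26 to 7.94 in mandibular molars 1 to 4 and 7.89 to 8.09 in mandibular molars 5 to 8. It was 7.81 to 7.88 in maxillary molars and 7.40 to 7.58 in lower incisors. Of these markers 2 of 7 were higher in mandibular molars than in incisors over all samples, and 0 of 7 within the first sample set. The mean of 12 cartilage markers was 6.76 to 6.98 in mandibular molars, a range that also held the maxillary molars, and 7.20 to 8.27 in incisors, and 11 of 12 were lower in mandibular molars than in incisors, as *Sfrp4* and *Wif1* were, and 3 of 12 within the first sample set. The mean of 10 markers of keratinizing epithelium was 6.93 to 7.76 in mandibular molars, 6.95 to 7.60 in maxillary molars and 7.62 to 8.12 in incisors, and 4 of 10 were lower in mandibular molars, both over all samples and within the first set. Mandibular molar 8 and maxillary molar 4, the highest of their groups for *Wif1*, were also the highest for these markers, at 7.76 and 7.60. In lower incisors it was otherwise, with sample 4 the highest for *Wif1* (10.33) and sample 2 for these markers (8.12, against 7.95 in sample 4). Of 8 mast cell and macrophage markers, 3 were lower in mandibular molars and 1 was higher. Lower incisors 1 to 4 had cartilage means of 8.26, 7.20, 7.41 and 8.27, and *Sfrp4* signals of 11.60, 11.46, 11.10 and 11.88. The mean of 14 skeletal muscle markers was 7.42 to 8.68 in mandibular molars, 6.65 to 7.06 in maxillary molars and 8.37 to 8.58 in incisors. Mandibular molar 2 alone gave the highest muscle mean (8.68) and the lowest dental epithelium mean (10) of the mandibular molars. Among them it also had the lowest signals of *Sfrp5*, *Wif1* and the Dickkopf genes, and the highest of *Sfrp2*. As with *Dkk2*, the muscle markers were higher in mandibular than in maxillary molars, 12 of 14 over all samples and 8 of 14 within the second sample set. Between maxillary molars and incisors, 7 of 9 dental mesenchyme markers were higher, and 12 of 12 cartilage and 14 of 14 muscle markers were lower in maxillary molars. The part of these tissues in the differences of the antagonist genes was not tested.

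**Figure D3:**
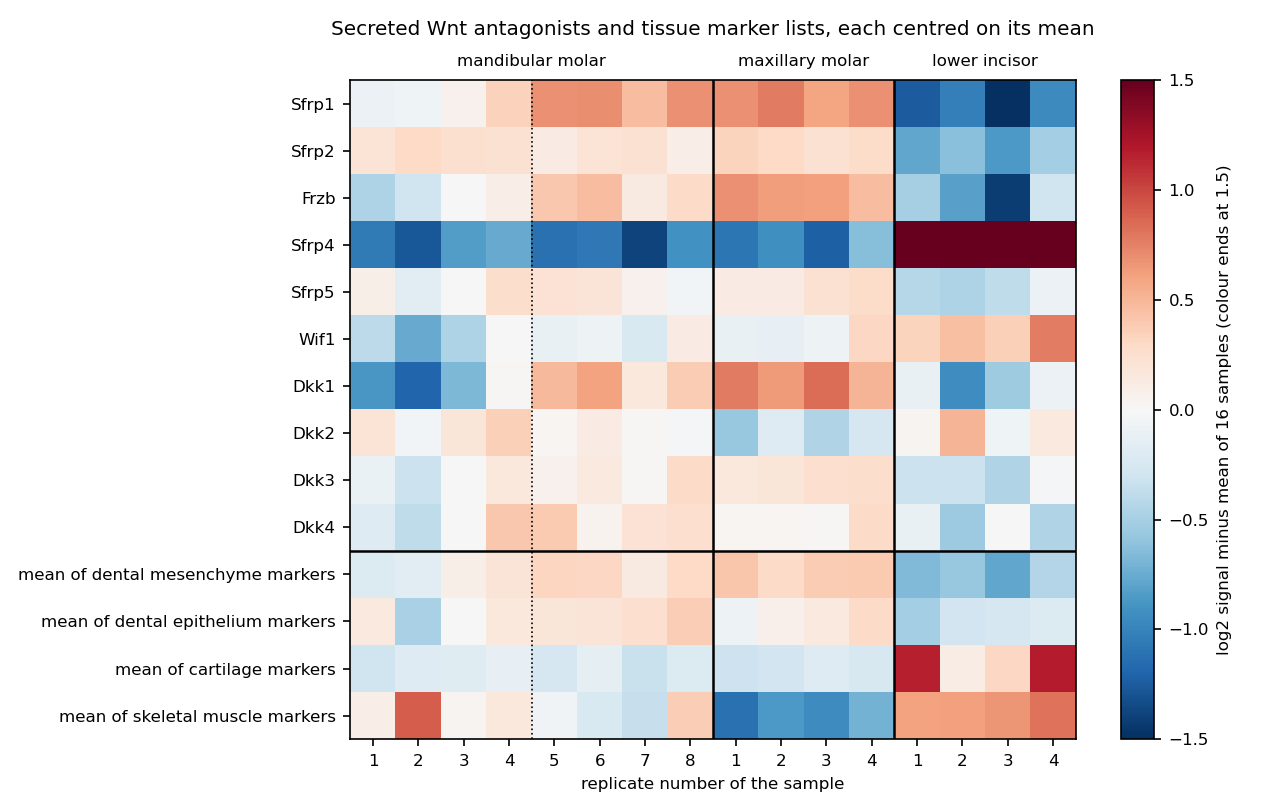
Log2 signal of each gene, and mean log2 signal of 4 marker lists, in the 16 samples (columns, by replicate number within each tooth type), each row minus its own mean. Red is above and blue below that mean, and the dotted line parts mandibular molars 1 to 4 from 5 to 8. *Sfrp4* is red in the 4 incisors alone; *Sfrp1*, *Frzb* and *Dkk1* are paler or bluer in mandibular molars 1 to 4 than in 5 to 8; cartilage means of 7.20 to 8.27 mark the incisors.

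Among the 10 genes, *Sfrp1* varied most like *Frzb* over the 16 samples (Pearson r = 0.939), and *Sfrp2* was close to a mirror of *Sfrp4* (r = -0.958). *Wif1* went with *Sfrp4* (r = 0.786), and *Dkk1* with *Dkk3* (r = 0.795) and *Frzb* (r = 0.791). These correlations are descriptions, since the samples share tooth type and sample set.

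Of 1606 genes with a range of at least 1 log2 unit, those most like each antagonist over the 16 samples were also taken, 3 for each. *Sfrp4* was nearest to the transcription factor genes *Isl1* (r = 0.991) and *Hand2* (r = 0.987) and to *Hpse2* (r = 0.986). *Sfrp2* was nearest to the homeobox genes *Dlx1* (r = 0.978), *Barx1* (r = 0.977) and *Shox2* (r = 0.975). *Sfrp1* went with *Gfra2*, *Fam171b* and *Cyp1b1* (r = 0.971 to 0.963), and *Frzb* with *Foxf1*, *Eya1* and *Cntn1* (r = 0.972 to 0.963). For *Sfrp5* the 3 were *Pid1*, *Alox12e* and *Entpd1* (r = 0.924 to 0.903), and for *Wif1* *Ly6g6c*, *Qrfpr* and *Gng2* (r = 0.952 to 0.913). *Dkk1* was nearest to *Prr11*, *Ehd3* and *Sh3bgrl* (r = 0.942 to 0.936) and *Dkk3* to *Hspb6*, *Pcolce* and *Rab7* (r = 0.953 to 0.947). The likeness was lower for *Dkk2*, with *Pla2g4a*, *Idi2* and *Tbx22* (r = 0.883 to 0.838), and for *Dkk4*, with *Casz1*, *Has3* and *Large2* (r = 0.883 to 0.81).

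Of 68 other Wnt pathway genes, in 4 lists, 6 passed between mandibular molars and incisors, where 2.75% of all probe sets were higher and 2.18% lower. Among 18 ligand genes 2 were lower in mandibular molars, the noncanonical ligand genes *Wnt5a* (-1.45, adjusted p = 6.21e-05) and *Wnt11* (-0.47, adjusted p = 0.00274), the same direction as *Sfrp4* and *Wif1*. Of 17 receptor and co-receptor genes, *Ror1*, which encodes a receptor of Wnt5a, was higher (1.09, adjusted p = 1.42e-06), and the Frizzled genes *Fzd9* (-0.61, adjusted p = 0.065) and *Fzd10* (-0.57, adjusted p = 0.0345) were lower. Among 16 other secreted or membrane modulators *Draxin*, whose product binds Wnt co-receptors, was lower (-0.56, adjusted p = 0.00497). Of 17 targets and effectors of the canonical pathway 0 passed with limma. An unadjusted p under 0.05 was found for 3 of the 17, beside 5375 of 29258 probe sets. The methods' t-test called 0, beside 1075 of 29258 probe sets. Within the first sample set 3 of the 68 genes passed, where 0.948% of all probe sets were higher and 0.832% lower. They were 2 ligand genes that were lower and 1 receptor gene that was higher. The calls of *Fzd9* and *Fzd10* as lower, and that of *Draxin*, were thus lost within this set. Among the genes of the proteins that Dickkopfs bind, *Lrp5*, *Lrp6* and *Kremen1* were chosen here after their values were seen. Between all mandibular molars and incisors they had small differences that did not pass, at 0.07, 0.06 and 0.06. *Kremen2* did not pass in that comparison either.

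**Figure D4:**
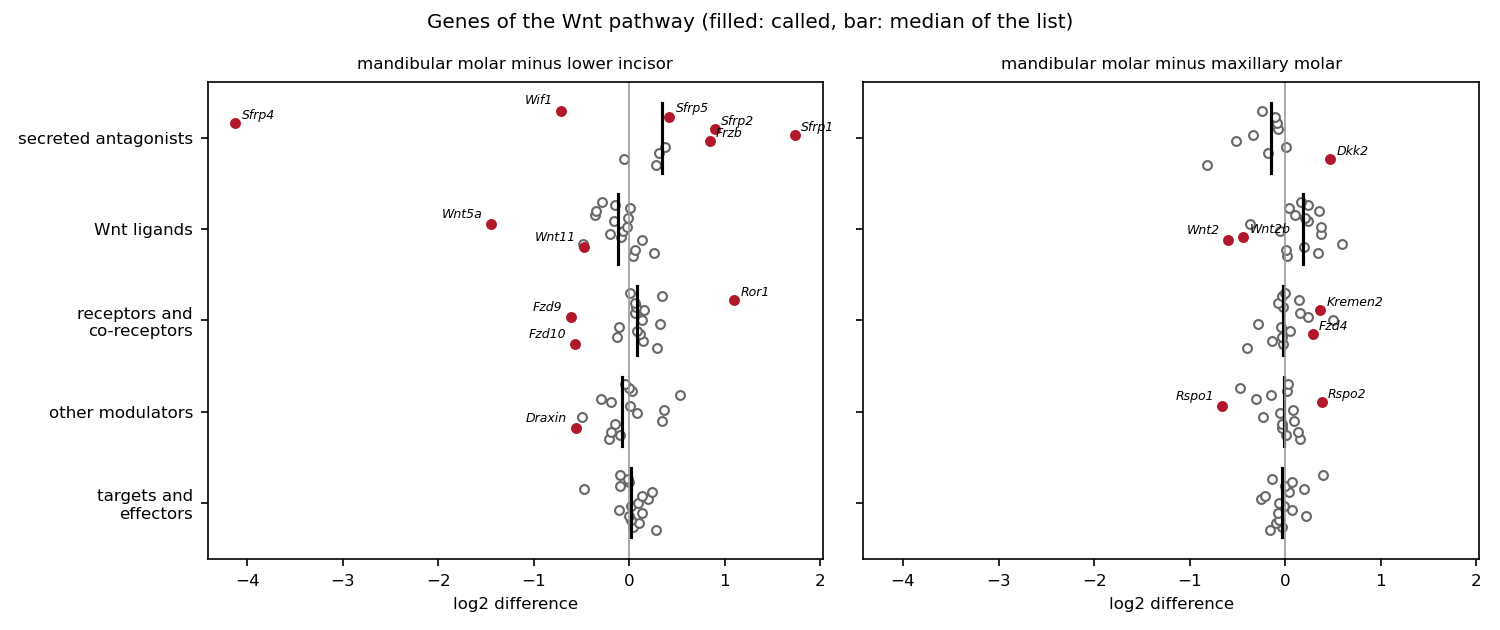
Log2 difference (x axis, first-named minus second-named tooth type) of the 10 secreted antagonist genes and of 4 other lists of Wnt pathway genes (y axis). Each point is a gene, filled and named where it passed the test, and the bar is the median of the list. The antagonists have 6 filled points between mandibular molars and incisors, spread from -4.12 to 1.73, and 1 between the molars.

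Between the molars, 2 of 18 ligand genes were lower in mandibular molars, *Wnt2* (-0.60, adjusted p = 0.0856) and *Wnt2b* (-0.44, adjusted p = 0.0219). *Kremen2*, which encodes a co-receptor of the Dickkopf proteins, was higher (0.36, adjusted p = 0.046), as *Dkk2* was, and so was *Fzd4* (0.29, adjusted p = 0.0792), these being 2 of 17 receptor genes. Of the R-spondin genes, whose products potentiate Wnt signals, *Rspo2* was higher (0.38, adjusted p = 0.0699) and *Rspo1* lower (-0.66, adjusted p = 0.0413), 2 of 16 modulators. Of 17 targets and effectors 0 passed with limma, and 2 had an unadjusted p under 0.05, beside 4971 of 29068 probe sets. The t-test of the methods called 0, beside 429 of 29068 probe sets. Over all probe sets 1.01% were higher and 1.18% lower. Within the second sample set 4 of the 68 genes passed with limma, where 0.54% of all probe sets were higher and 0.743% lower. They were 1 ligand gene higher and 2 lower, and 1 receptor gene higher. The calls of *Rspo1* and *Rspo2* were lost within this set, and the t-test called 0 in each list, beside 112 of 28686 probe sets. Between maxillary molars and incisors, where tooth type goes with sample set and 14.4% of all probe sets were higher and 13.4% lower, 2 of 18 ligand genes were higher and 10 lower, with *Wnt16* at -1.08 and *Wnt5a* at -1.08. There 5 of 17 receptor genes were higher and 3 lower, with *Ror1* at 0.95 and *Fzd9* at -0.85, 3 of 16 modulators were higher and 3 lower, and 2 of 17 targets and effectors were higher and 2 lower.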

How the data were processed

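The authors hybridized RNA of pooled tooth germs to Affymetrix Mouse Gene 1.0 ST arrays and deposited log2 signals of 35556 probe sets, made with RMA in Affymetrix Expression Console 1.1 (background correction, quantile normalization and median polish). Sample medians lay at 6.80 to 6.99. The 16 arrays limit the precision. Probe sets were named from the platform annotation: 21789 carried 1 gene symbol, 1621 several and 12146 none. Where a gene had several single-symbol probe sets, the highest mean was used.

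For each pair of tooth types, probe sets above 5 in at least 1 compared sample were kept and limma 3.58.1 (R 4.3.3; lmFit and eBayes) was fitted to those samples. Calls needed a Benjamini-Hochberg adjusted p under 0.1 over all kept probe sets and a fold change above 1.2, the thresholds of the study for pathways; the t-test named in its legend was an alternative. The fits were tested on simulated data. Other alternatives were the filter, normalization, array weights, trend with robust variances, all tooth types in 1 fit, a replicate block, the sample set, 1 probe set per gene, stricter thresholds and each sample left out.

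The genes, lists, tests and sample sets were chosen with earlier results of these data known. Named were all 10 antagonists, up to 4 called genes of each list with the largest differences, and the 3 genes most correlated with each antagonist.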

Additional observations from a re-analysis of the deposited data

Results flagged for a closer look

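In 2 of 30 groups of samples, 1 for each gene and tooth type, a single sample stood farther from the others than Dixon's 95% limit allows, and chance gives such a sample in about 5% of groups. *Wif1* had a log2 signal of 9.867 in maxillary molar 4, and the next of the maxillary molars was 9.483, a gap of 0.893 of the range. *Dkk4* had 7.201 in the same sample, with the next at 6.943, a gap of 0.953 of the range. The mean signal of keratinizing epithelium markers was 7.60 in this sample and 6.95 to 7.11 in the other maxillary molars, and its part in these values was not tested.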

How the results depend on the processing

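Of 690 values of single genes under the alternatives, 627 kept their direction and their side of the threshold, 23 lost the call, 21 gained one and 19 changed direction. At a fold change above 2, the calls were 2 between mandibular molars and incisors (*Sfrp1* and *Sfrp4*), 0 between mandibular and maxillary molars, and 4 between maxillary molars and incisors (*Sfrp1*, *Frzb*, *Sfrp4* and *Dkk1*). Between mandibular molars and incisors there were 4 with mandibular molars 1 to 4 alone and 9 with 5 to 8 alone, against 6. *Dkk3* passed there with array weights (adjusted p = 0.0148), with all tooth types in 1 fit (0.0753) and with 1 probe set per gene (0.0832), and *Dkk4* with array weights (0.0627), and *Frzb* was lost with a replicate block (0.368). Leaving out each sample in turn gave 5 to 8, 1 to 2 and 9 to 10 calls in the 3 comparisons, and the 2 came without mandibular molar 6 (*Frzb* and *Dkk2*). With the sample set as a block the calls were 0 between the molars and 4 between maxillary molars and incisors. Between the molars there were 5 with mandibular molars 1 to 4 alone and 0 with 5 to 8 alone, and with 1 probe set per gene, which leaves fewer tests, there were 2 (*Frzb* and *Dkk2*). Apart from the effect of testing fewer probe sets, the cause of these changes was not tested. Mandibular molars 1 to 4 and the maxillary molars lie in different sample sets. Except where given above, the share of all probe sets called under an alternative was not counted, so these counts have no background beside them.

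The labels number the samples within each tooth type without saying what a number shares. The deviations of same-numbered samples from their group means correlated at 0.083 to 0.506 for mandibular molars with incisors, 0.00381 to 0.339 for mandibular with maxillary molars and -0.0689 to 0.243 for maxillary molars with incisors. At least 1 pair of each comparison lay under 0.1, and 2, 3 and 1 of 4 samples correlated best with their own number. Numbers 1 to 4 were therefore not taken to pair the samples. Of the mandibular molars only 1 to 4 entered these correlations. Whether the mandibular molars of the second sample set pair with the maxillary molars was not tested. The comparison within that set treated its samples as unpaired. With a replicate block the calls between the molars were 6, with 1 higher and 5 lower (*Sfrp1*, *Frzb*, *Wif1*, *Dkk1* and *Dkk3*), a fit that uses mandibular molars 1 to 4 in effect. The share of all probe sets called in that fit was not counted.

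The changes of direction concerned differences that did not pass. Between mandibular molars and incisors *Dkk1* was -0.262 and *Dkk2* 0.0181 with the replicate block, with the sample set as a block and with mandibular molars 1 to 4 alone, and *Dkk2* ran from -0.129 to 0.0636 as samples were left out. Between the molars *Dkk4* was -0.0141 after quantile normalization, -0.013 after median centring and -0.132 with the replicate block or with mandibular molars 1 to 4 alone, and -0.0389 to 0.0731 as samples were left out, while *Sfrp4* ran from -0.168 to 0.026. Taking the mean of several probe sets per gene was not run, since each antagonist had 1. The arrays give no counts, so depth cannot be stated.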
